A study of Arabidopsis thaliana with 4 samples.

Results

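The NGATHA transcription factors of Arabidopsis thaliana are 4 genes, NGA1 (AT2G46870), NGA2 (AT3G61970), NGA3 (AT1G01030) and NGA4 (AT4G01500), taken by identifier from a table of 33602 genes measured in sorted guard cells. They were selected on their TPM values in these same 4 libraries, FAMA-LGK against WT, so the differences between genotypes given for them are a description and carry no test. The guard cells came from aerial tissue of 12-day-old seedlings (days post germination) of 2 genotypes, with 2 libraries each. The tested plants were fama-1 mutants carrying FAMAp:FAMA-LGK, called FAMA-LGK here, in which the FAMA promoter drives a form of FAMA, a guard cell factor, whose binding motif for RBR1 (the plant retinoblastoma protein) is changed. The other plants were labelled wild type (WT). The series describes the FAMA-LGK cells as reprogrammed and the WT cells as fully differentiated guard cells. The sources used here give neither the number of independent transgenic lines nor the marker used for sorting.

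NGATHA proteins belong to the RAV branch of the plant B3 family, whose B3 domain binds DNA. The 4 genes act redundantly: plants that lack several of them make leaves with overgrown, serrated margins and carpels without a proper style and stigma. In the carpel they act upstream of STY and YUC genes of auxin synthesis, in the leaf they work beside the TCP4 group of factors to end growth at the margin, and NGA1 has been reported to bind the promoter of NCED3, an enzyme of abscisic acid synthesis. RAV relatives with an added AP2 domain, such as TEM1, repress flowering or respond to ethylene.

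The coding sequences of the 4 genes, read by identifier from RefSeq's TAIR10.1, share their longest identical run between NGA1 and NGA2. The 60 bases below are the ungapped stretch with the most bases alike in all 4 genes, 48 of 60, and code for part of the B3 domain. They are written 5′ to 3′ on the coding strand, and capitals mark bases that differ from NGA3. NGA1 is on the plus strand of chromosome 2 (coding bases 250 to 309), NGA2 on the plus strand of chromosome 3 (coding bases 223 to 282), NGA3 on the minus strand of chromosome 1 (coding bases 313 to 372) and NGA4 on the plus strand of chromosome 4 (coding bases 247 to 306).
NGA1: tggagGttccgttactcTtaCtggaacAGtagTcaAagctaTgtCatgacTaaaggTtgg
NGA2: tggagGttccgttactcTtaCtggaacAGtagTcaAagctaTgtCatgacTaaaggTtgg
NGA3: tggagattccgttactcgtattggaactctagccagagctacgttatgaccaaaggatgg
NGA4: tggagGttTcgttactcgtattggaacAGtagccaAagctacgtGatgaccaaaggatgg
NGA1 and NGA2 carry the same letters throughout this stretch, and their longest identical run is 63 bases. A read that lies wholly within that run belongs equally to either gene. Over 831 aligned coding bases NGA1 and NGA2 are 73.6% identical. NGA3 is closest to NGA4, at 68.6% over 918 aligned bases with a longest identical run of 29 bases, and its longest run shared with NGA1 or NGA2 is 17 and 21 bases. None of the 4 genes overlaps another annotated gene in TAIR10.1.

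NGA3 was the most abundant member in every library. It had 75.9 and 77.1 TPM (a level made from reads divided by gene length and set to the same total in each library) in FAMA-LGK replicates 1 and 2, and 36.1 and 24.2 TPM in WT replicates 1 and 2. Both FAMA-LGK libraries lay above both WT libraries, by more than the WT libraries differed from each other. The means were 76.5 ± 0.829 TPM in FAMA-LGK and 30.2 ± 8.42 TPM in WT (SD, n = 2 libraries each), a ratio of 2.54 and a difference of 1.34 on the log2(TPM + 1) scale. These values rest on an estimated 1507 and 1536 reads in FAMA-LGK and 730 and 556 reads in WT. By level, NGA3 ranked 908 and 1036 of 33602 genes in the FAMA-LGK libraries, against 2195 and 2957 in the WT libraries.

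NGA2 went the other way. It had 4.01 and 5.64 TPM in FAMA-LGK and 12.8 and 11.6 TPM in WT, so both FAMA-LGK libraries lay below both WT libraries. The means were 4.83 ± 1.16 TPM in FAMA-LGK and 12.2 ± 0.826 TPM in WT (SD, n = 2 libraries each), with WT higher by a ratio of 2.52 and a log2(TPM + 1) difference of -1.19, FAMA-LGK minus WT. The estimated reads were 58 and 82 in FAMA-LGK, against 188 and 194 in WT.

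NGA1 was near the limit of what these libraries can show. It had 2.32 and 0.900 TPM in FAMA-LGK, from an estimated 36 and 14 reads, and 0.190 and 0 TPM in WT, from 3 and 0 reads. The groups did not overlap, but the 2 FAMA-LGK libraries differed from each other by more than the WT libraries did. Pooled over libraries, 50 reads in FAMA-LGK against 3 in WT give a ratio of 18.1. The exact 95% interval for counting error alone is 5.84 to 90.7. This interval leaves out the spread between libraries and, since this contrast chose NGA1, is no test of a difference. The log2(TPM + 1) difference of 1.20 depends on the pseudocount at this level and was 3.19 with a pseudocount of 0.1. Reads that lie wholly within the 63-base run that NGA1 shares with NGA2 cannot be told apart. The sources used here give neither the read length nor how such reads were counted. The part of such reads in the NGA1 values was not tested.

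NGA4 was listed at 0 TPM in all 4 libraries. At its annotated exon length of 1527 bases, a count of 0 allows up to 3 reads, which is 0.189 and 0.188 TPM in the FAMA-LGK libraries and 0.185 and 0.163 TPM in the WT libraries, so lower levels of NGA4 were not detectable at this depth.

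**Figure D1:**
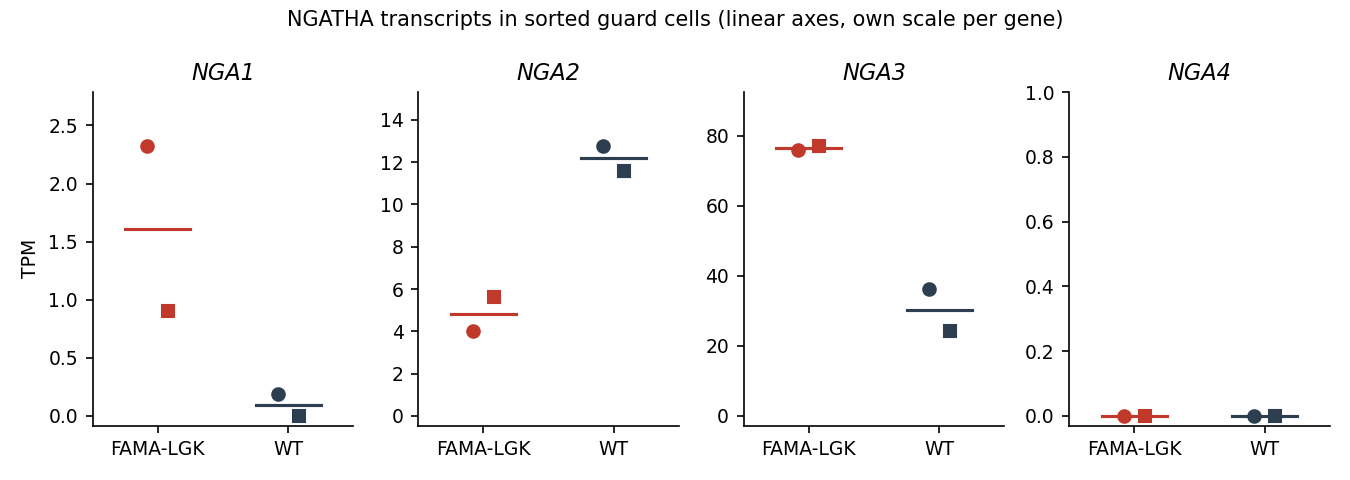
TPM (linear axis, own scale for each gene) of the 4 NGATHA genes in FAMA-LGK and WT guard cells. Circles are replicate 1, squares replicate 2 and bars the group means; the FAMA-LGK libraries lie above WT for NGA1 and NGA3 and below WT for NGA2, and NGA4 is at 0 throughout.

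Of the 4 members, 2 lay higher and 1 lay lower in both FAMA-LGK libraries than in both WT libraries. Among the 15143 genes whose mean reached 1 TPM, 31.6% were higher in this sense and 25.7% lower; since this contrast chose the members, nothing is read from their count. NGA2 and NGA3 passed that minimum, whereas NGA1 (mean 0.853 TPM over the 4 libraries) and NGA4 lay below it.

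The make-up of the family differed between the genotypes. The summed level of the 4 genes was 82.2 and 83.6 TPM in FAMA-LGK and 49.1 and 35.8 TPM in WT, a ratio of means of 1.95. NGA3 supplied 92.3% and 92.2% of that sum in FAMA-LGK, against 73.6% and 67.6% in WT. NGA2 supplied 4.87% and 6.75% in FAMA-LGK, against 26.0% and 32.4% in WT. NGA3 thus exceeded NGA2 by 18.9 and 13.7 times within the FAMA-LGK libraries and by 2.83 and 2.09 times within the WT libraries. This ratio is taken inside a library, so scaling between libraries does not touch it. The order NGA3, NGA2, NGA1 held in each of the 4 libraries. NGA2 and NGA1 lay closest in FAMA-LGK replicate 1, at 4.01 and 2.32 TPM. NGA1 and NGA4 did not differ in WT replicate 2, where both were at 0.

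**Figure D2:**
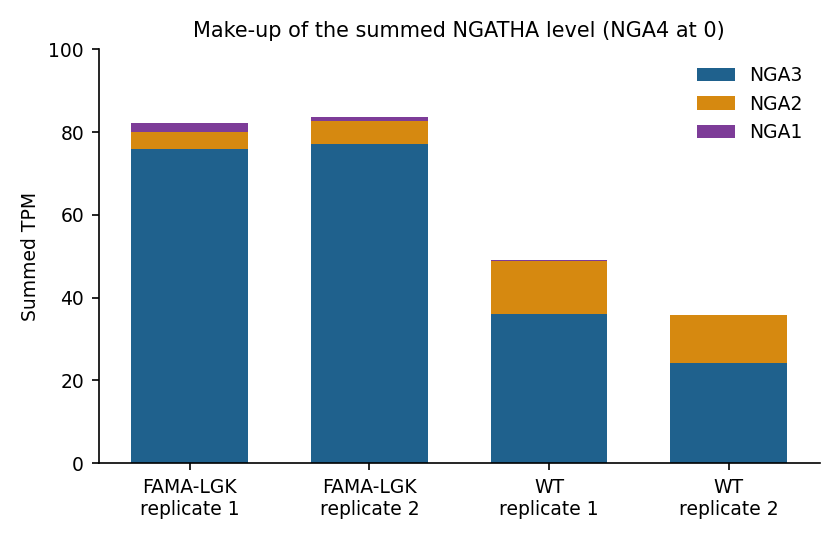
Summed TPM of the NGATHA genes in each library, stacked by gene from NGA3 at the bottom to NGA1 at the top. The sum is 82.2 and 83.6 TPM in the FAMA-LGK libraries and 49.1 and 35.8 TPM in the WT libraries, and the NGA2 share is smaller in FAMA-LGK.

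The libraries as a whole set the frame for these values. Limma, a linear model fitted across all genes whose mean reached 1 TPM, called 12.6% of the 15143 genes at an adjusted p under 0.05, 977 higher and 930 lower in FAMA-LGK. Without either WT library it called 0 genes, with 2675 genes at an unadjusted p under 0.05 without WT replicate 1 and 2365 without WT replicate 2, so every call given below is lost in both of these fits. Ribosomal RNA and organelle genes took 62.8% and 53.2% of TPM in FAMA-LGK and 52.0% and 52.5% in WT. With them removed, 1504 genes were higher and 736 lower, and the median log2 fold change of all genes was 0.24, against 0.06 with them. On that scale the differences of NGA1, NGA2 and NGA3 were 1.96, -1.09 and 1.55, each with the same sign as before. FAMA transcripts were at 87.8 ± 9.24 TPM in FAMA-LGK and 65.9 ± 0.370 TPM in WT (SD, n = 2 libraries each; limma adjusted p = 0.224), and reads of the transgene and of the mutant locus cannot be told apart.

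Markers of some cell types also differed between the genotypes, where limma called 12.6% of all genes tested. Limma called 7 of 11 guard cell markers lower and 1, MYB60, higher, while FAMA, KAT1 and OST1 were not called. Their summed level was 2579 to 2937 TPM in FAMA-LGK and 13900 to 18010 TPM in WT. Most of that sum was a single gene, TGG1, with 2652 and 2313 TPM in FAMA-LGK and 16420 and 12490 TPM in WT. Of 5 epidermis markers, 4 were called higher, with sums of 277.2 to 325.6 TPM in FAMA-LGK and 62.6 to 90.2 TPM in WT. Of 7 early stomatal lineage markers, 5 were tested and 3 were called higher. The 7 summed to 122.9 to 153.7 TPM in FAMA-LGK and 53.8 to 56.2 TPM in WT. SPCH, which starts the lineage, had 26.6 and 42.2 TPM in FAMA-LGK and 4.05 and 2.88 TPM in WT. TMM and POLAR were the other calls. EPF2 and ERL1 also lay above WT in both FAMA-LGK libraries without a call. MUTE did too, but MUTE and BASL lay below the minimum and were not tested. BASL was at 0 in every library but FAMA-LGK replicate 2, where it had 2.13 TPM. Mesophyll markers summed to 424.6 to 502.1 TPM in FAMA-LGK and 531.4 to 577.3 TPM in WT, with 1 of 7 called lower. The sums of trichome, vascular and shoot meristem markers were at most 3.48 TPM in any library, and WUS, CLV3 and KNAT1 were at 0 in all 4. The part of these cell types in the NGATHA levels was not tested. In RNA from pooled cells, fewer cells of a type and less RNA per cell cannot be told apart.

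Of the 9 RAV relatives of the NGATHA genes, 4 passed the minimum, and TEM1 and RAV1 were called higher in FAMA-LGK. TEM1 (AT1G25560), a repressor of flowering, had 91.0 and 93.3 TPM in FAMA-LGK and 43.1 and 28.3 TPM in WT, and rose (log2 fold change 1.37, SE 0.24, limma adjusted p = 0.00571). RAV1 (AT1G13260), which promotes leaf senescence, had 4.51 and 7.16 TPM in FAMA-LGK and 1.38 and 0.896 TPM in WT, and rose by 1.66 (SE 0.37, limma adjusted p = 0.0172). Both FAMA-LGK libraries lay above both WT libraries for each of these genes. TEM2, which also represses flowering, had 35.1 and 40.0 TPM in FAMA-LGK and 27.0 and 17.7 TPM in WT, and was not called (log2 fold change 0.75, limma adjusted p = 0.0833). EDF3, an ethylene response factor, was the most abundant relative, at 100.3 and 109.1 TPM in FAMA-LGK and 92.8 and 66.6 TPM in WT, without a call (log2 fold change 0.41, limma adjusted p = 0.270).

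In all, 2 of the 4 relatives tested were called higher and 0 lower, where 6.45% of all genes were called higher and 6.14% lower. In each of the 4, as in NGA3, both FAMA-LGK libraries lay above both WT libraries, which held for 31.6% of all genes tested. WT replicate 1 also lay above WT replicate 2 in these genes. The median log2 fold change of the 4 relatives was 1.06, against 0.06 for all genes tested. Without a minimum on low values neither TEM1 (limma adjusted p = 0.061) nor RAV1 (0.102) was called, and RAV1 was also not called without FAMA-LGK replicate 2 (0.0723). TEM2 was called higher once ribosomal RNA and organelle genes were removed (log2 fold change 0.96, limma adjusted p = 0.031). On that scale the median log2 fold change of all genes was itself 0.24. With median-ratio scaling TEM2 was not called (log2 fold change 0.69, limma adjusted p = 0.0631).

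The remaining RAV relatives lay below the minimum. NGAL1, whose name stands for NGATHA-like, had 0.597 and 0.297 TPM in FAMA-LGK and 0.117 and 1.65 TPM in WT, and the 2 WT libraries lay on either side of the FAMA-LGK libraries. DPA4, which restrains leaf serration, was listed at 0 in all 4 libraries, and AT3G11580 reached at most 0.150 TPM. AT1G50680 and AT1G51120 had a single estimated read between them. In WT guard cells, therefore, 5 genes of the family exceeded 10 TPM in both libraries: NGA2, NGA3, TEM1, TEM2 and EDF3.

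**Figure D3:**
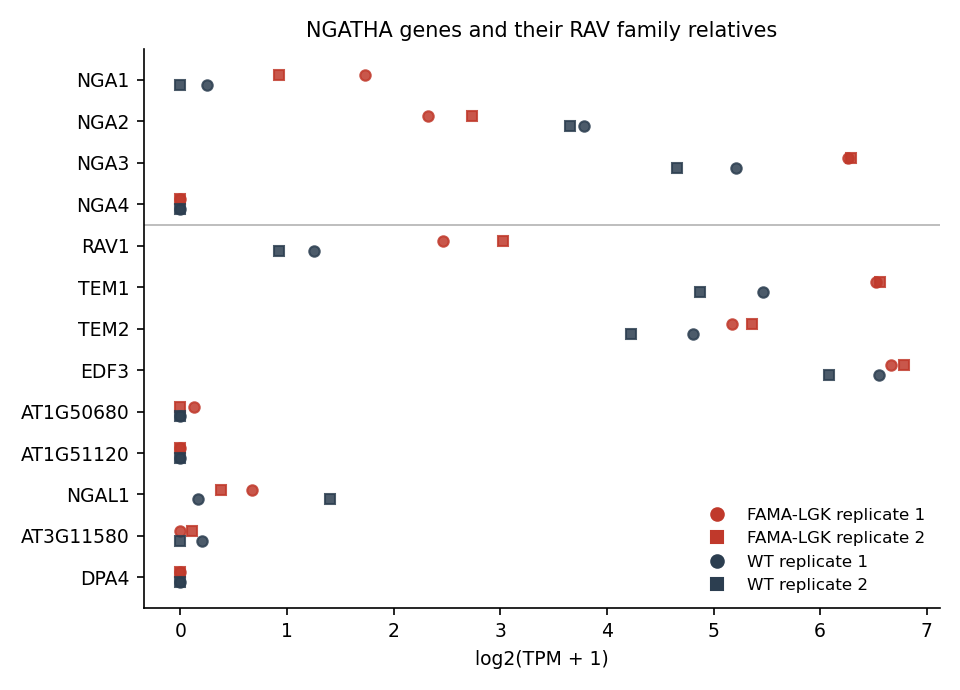
Levels, as log2(TPM + 1), of the 4 NGATHA genes (above the line) and their 9 RAV family relatives (below it), with FAMA-LGK in red above WT in dark blue for each gene. NGA3, TEM1, RAV1, TEM2 and EDF3 lie further right in both FAMA-LGK libraries, NGA2 lies further left, and NGA4, DPA4 and AT1G51120 are at 0.

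Of 8 more distant B3 factors, 4 passed the minimum and limma called 0, where it called 12.6% of all genes tested. Also, 0 of the 4 had an unadjusted p under 0.05 (median log2 fold change 0.16, against 0.06 for all genes tested). VAL1, a repressor of seed genes and the most abundant of them, was at 18.0 ± 2.25 TPM in FAMA-LGK and 19.2 ± 5.20 TPM in WT (SD, n = 2 libraries each), a difference smaller than the SD of either group. The 4 genes below the minimum reached at most 0.341 TPM.

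The genes whose pattern over the 4 libraries was nearest to each member were found among 6548 genes with an annotated symbol whose mean reached 1 TPM, by the Euclidean distance between log2(TPM + 1) values centred on each gene's mean. TEM1 was nearest to NGA3, at a distance of 0.042 where the median gene lay at 1.42. TEM1 exceeded NGA3 by 1.20 and 1.21 times in the FAMA-LGK libraries and by 1.19 and 1.17 times in the WT libraries, so their ratio was nearly the same in all 4. HB34, a zinc finger homeodomain factor, had 16.4 and 15.9 TPM in FAMA-LGK and 7.33 and 4.72 TPM in WT (distance 0.053). HIK, a kinesin of cytokinesis, followed at 0.061. Nearest to NGA2 were PRF4, a profilin that binds actin (0.070), RCI2A, a small membrane protein induced by cold (0.097), and MTM1, a myotubularin phosphatase (0.111). Nearest to NGA1 were CLE20, a signalling peptide gene at similarly low levels (0.208), HB23, another zinc finger homeodomain factor (0.236), and OFP13 of the OVATE family (0.243). The summed family level was nearest to DCP5-L (0.055), TSBtype2 (0.074) and GGH1 (0.087). Distances over 4 libraries of 2 genotypes are a description, and NGA4, at 0 throughout, has no pattern to match.

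Of 22 factors of the style and gynoecium, 18 lay below the minimum, at no more than 1.23 TPM in any library. Of these, 8 were at 0 in all 4 libraries, among them STY1, an activator of auxin synthesis. STY2, a promoter of style growth, had 1.49 and 3.59 TPM in FAMA-LGK and 0.764 and 0.734 TPM in WT, without a call (limma adjusted p = 0.182). SPT, a partner of the style factors that was named after its values were seen, was at 16.3 ± 1.44 TPM in FAMA-LGK and 23.5 ± 4.50 TPM in WT (SD, n = 2 libraries each; limma adjusted p = 0.221). YAB3, which marks the lower side of leaves and carpels, was the most abundant and the only one called: it had 36.4 and 42.0 TPM in FAMA-LGK and 7.39 and 8.07 TPM in WT (log2 fold change 2.20, SE 0.23, limma adjusted p = 3.6e-04). The median over the 4 tested genes was 0.50, against 0.06 for all genes tested, of which 12.6% were called.

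Genes of auxin synthesis were at or near 0. All 14 lay below the minimum, 7 of them, including YUC2 and YUC4, at 0 in all 4 libraries. YUC8, named after its values were seen, reached the highest level of the list, with 1.15 and 1.09 TPM in FAMA-LGK, from an estimated 20 and 19 reads, and 0 and 0.0496 TPM in WT, from 0 and 1 read.

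Of 18 genes that auxin induces, 8 were tested, and limma called IAA2, IAA13, IAA19 and GH3.5 higher in FAMA-LGK and 0 lower. Of all genes tested, 6.45% were called higher and 6.14% lower. The median log2 fold change of the 8 was 1.17, against 0.06 for all genes tested. IAA2, a repressor in auxin signalling, had 119.6 and 111.7 TPM in FAMA-LGK and 9.92 and 15.8 TPM in WT (log2 fold change 3.11, SE 0.25, limma adjusted p = 8.6e-05). GH3.5, an enzyme that couples auxin to amino acids, had 14.8 and 12.9 TPM in FAMA-LGK and 4.28 and 2.99 TPM in WT (limma adjusted p = 0.00507). IAA19 was at 12.1 ± 0.939 TPM in FAMA-LGK and 3.32 ± 2.08 TPM in WT (adjusted p = 0.0159), and IAA13 at 6.81 ± 0.140 TPM in FAMA-LGK and 1.94 ± 0.698 TPM in WT (adjusted p = 0.0218; SD, n = 2 libraries each). The list had 2 calls without FAMA-LGK replicate 1, 2 without FAMA-LGK replicate 2 and 1 without a minimum. IAA16, the most abundant, was at 224.5 ± 10.8 TPM in FAMA-LGK and 186.5 ± 18.7 TPM in WT, without a call (adjusted p = 0.435). Among the 10 genes below the minimum, and named after their values were seen, GH3.1 had 0 and 0.232 TPM in FAMA-LGK and 2.47 and 0.926 TPM in WT, and IAA14 had 0 and 0.0645 TPM in FAMA-LGK and 0.382 and 0.392 TPM in WT. Both lay lower in FAMA-LGK, at levels too low for the test. IAA7, also named after its values were seen, lay higher, with 0.983 and 0.306 TPM in FAMA-LGK and 0 and 0.0531 TPM in WT. The others of the 10 overlapped between the genotypes or were at 0 throughout. IAA13 shares 35.3% of its exons with a gene on the opposite strand that was listed at 0.

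Of 17 genes of auxin transport, 3 were tested and 1 was called, where 12.6% of all genes tested were called. ABCB1, an exporter of auxin, had 15.8 and 17.3 TPM in FAMA-LGK and 3.90 and 2.27 TPM in WT (log2 fold change 2.13, SE 0.30, limma adjusted p = 0.00186). PID, a kinase that directs auxin carriers and the most abundant of the list, was at 21.0 ± 3.64 TPM in FAMA-LGK and 14.9 ± 3.56 TPM in WT (SD, n = 2 libraries each; adjusted p = 0.270).

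Of 28 genes of leaf margin and organ growth, 11 were tested, and limma called 1 higher and 0 lower (median -0.03). Across all genes tested it called 6.45% higher and 6.14% lower (median 0.06). ARGOS, which prolongs organ growth and was the most abundant, had 17.0 and 14.8 TPM in FAMA-LGK and 8.29 and 6.29 TPM in WT (log2 fold change 1.03, SE 0.26, limma adjusted p = 0.0318). That call was lost without FAMA-LGK replicate 1 (adjusted p = 0.112), without FAMA-LGK replicate 2 (0.0587), without a variance trend (0.0666) and without a minimum (0.1). TCP4, a factor that ends leaf growth, was at 3.62 ± 0.0824 TPM in FAMA-LGK and 4.11 ± 0.765 TPM in WT (SD, n = 2 libraries each; adjusted p = 0.824), a difference whose sign depends on the scaling. CUC2, which sets leaf serrations, and KLU, which sustains organ growth, were at 0 in all 4 libraries. Among the 17 genes below the minimum, and named after their values were seen, TCP24 and GRF5 lay higher in FAMA-LGK. TCP24 had 1.57 and 1.68 TPM in FAMA-LGK and 0.165 and 0.388 TPM in WT. GRF5 had 1.22 and 1.27 TPM in FAMA-LGK and 0 and 0.053 TPM in WT. The others of the 17 overlapped between the genotypes or were at 0 throughout.

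Genes of abscisic acid metabolism went both ways. NCED3, the drought-induced enzyme of abscisic acid synthesis, had 4.65 and 7.32 TPM in FAMA-LGK and 7.13 and 5.67 TPM in WT, and the groups overlapped (log2 fold change -0.10, limma adjusted p = 0.870; 0.07 with ribosomal RNA and organelle genes removed, 0.18 without FAMA-LGK replicate 1 and 0.04 without WT replicate 1). ABA1, an earlier enzyme of the pathway, was at 11.3 ± 0.676 TPM in FAMA-LGK and 23.9 ± 3.34 TPM in WT (log2 fold change -1.02, adjusted p = 0.0223), and ABA2, a later one, at 4.09 ± 0.412 TPM in FAMA-LGK and 10.4 ± 0.669 TPM in WT (-1.16, adjusted p = 0.0251; SD, n = 2 libraries each). CYP707A3, which breaks the hormone down and was the most abundant, had 56.0 and 54.2 TPM in FAMA-LGK and 14.2 and 11.3 TPM in WT (log2 fold change 2.04, SE 0.22, limma adjusted p = 4.7e-04). In all, 6 of 14 genes were tested, of which 1 was higher and 2 were lower (median -0.16). The shares over all genes tested were 6.45% higher and 6.14% lower (median 0.06). Without FAMA-LGK replicate 1 neither ABA1 (adjusted p = 0.0624) nor ABA2 (0.0508) was called, and ABA2 was also not called without FAMA-LGK replicate 2 (0.0676) or after removal of ribosomal RNA and organelle genes (0.0527). Without a variance trend ABA1 was at 0.0635. Of ABA2's exons, 29.5% overlap an annotated gene on the opposite strand that was not analysed here.

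**Figure D4:**
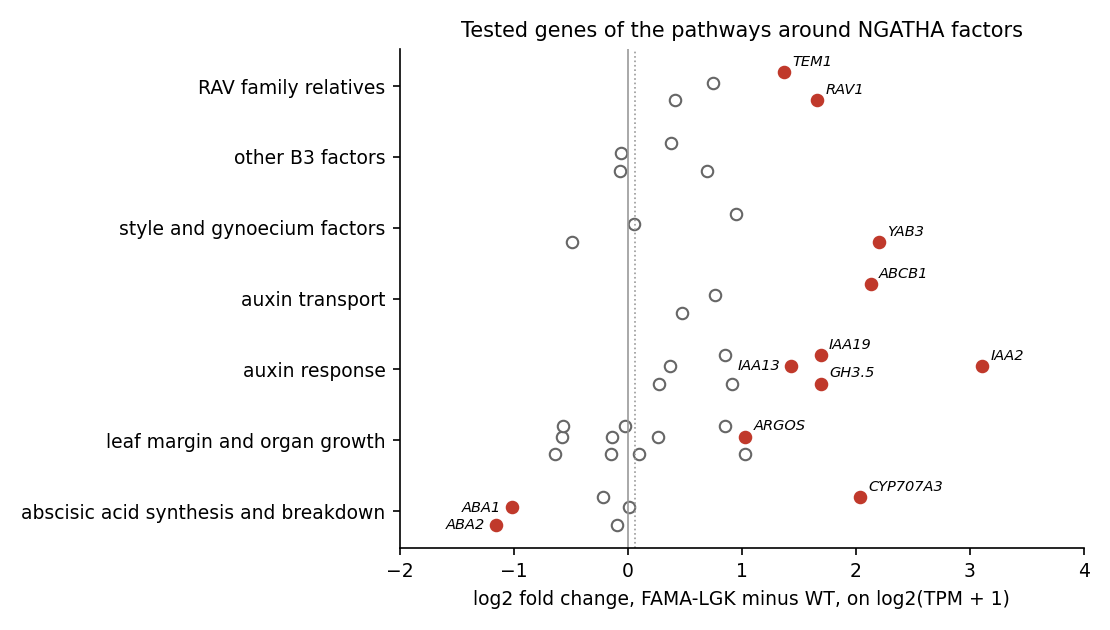
Log2 fold changes, FAMA-LGK minus WT, on the log2(TPM + 1) scale, of the tested genes in each list around the NGATHA factors; filled red points passed limma's test and open points did not. The dotted line is the median of all genes tested, 0.06; 10 genes lie to the right of it as filled points, with IAA2 furthest at 3.11, and ABA1 and ABA2 lie to the left.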

How the data were processed

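RNA was measured in 4 libraries of sorted guard cells. The authors deposited TPM values for 33602 genes in 1 table, and per the labels they came from HTSeq counts of reads in genes. The submitters' processing notes name TAIR10, Bowtie2, HTSeq and CASAVA 1.8.2. The sources used here give no gene lengths, read length, strandedness or rule for reads that match more than 1 gene. A label called replicated series has 1 value per genotype, so what it stands for cannot be told apart from genotype.

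The members, gene lists and tests were chosen with earlier results of these data known. The members were proposed on this contrast, so they carry no test. Other genes whose mean reached 1 TPM were tested on the log2(TPM + 1) scale by limma 3.58.1, run in R 4.3.3. The settings were eBayes with a trend, two-sided, Benjamini-Hochberg over 15143 genes and a threshold of 0.05. Fold changes on this scale understate the change of low genes. The fit was also run on simulated reads, with larger changes than several called here, so that run does not vouch for these calls. No label says whether libraries of a genotype are from separate plants, so the spread behind each p-value is that between these libraries and may be technical. With 2 libraries against 2, no exact permutation test of a single gene can reach the threshold.

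TPM keeps no library size. Values made from whole reads share a step within a gene, and 99.4% of 9219 low genes came out as whole reads within a tolerance of 0.005, against 13.8% after WT replicate 2 was shuffled. Where several read numbers gave a whole gene length, the length nearest the TAIR10.1 exon length was taken, so the read numbers given are estimates, and intervals and floors made from them cover counting error only. Gene names, overlaps and coding sequences came from RefSeq's TAIR10.1, which matched 32835 of the 33602 identifiers; no genome coordinates are given, since the authors' build has another name. Coding sequences were aligned with MAFFT. Genes were named by a rule: all RAV family genes, called genes and the most abundant gene of each list, 8 genes tied to NGATHA factors in the literature, FAMA, and the 3 nearest patterns to each member. Alternatives were another pseudocount, other minimums, median-ratio scaling, removal of ribosomal RNA and organelle genes, no variance trend, a replicate block and each library left out. Tables and figures were made in Python 3.11.15 with matplotlib 3.10.9, biopython 1.88, scipy 1.17.1, pandas 2.3.3 and numpy 2.4.6.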

Additional observations from a re-analysis of the deposited data

How the results depend on the processing

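Across a pseudocount of 0.1 and both other scalings the log2 differences were -1.34 to -1.09 for NGA2, 1.28 to 1.55 for NGA3 and 0.91 to 1.17 for the summed family. NGA1 moved to 3.19 with the pseudocount of 0.1 and to 1.96 with ribosomal RNA and organelle genes removed. Leaving out 1 library gave -1.39 to -0.99 for NGA2, 1.06 to 1.62 for NGA3, 0.75 to 1.19 for the sum and 0.80 to 1.61 for NGA1; since the genotypes do not overlap, no left-out library can turn these signs.

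Over all genes, limma called 511 without a minimum and 0 to 1685 when 1 library was left out, in place of 1907. Without a minimum the called genes numbered 0 for RAV relatives, 1 for auxin response, 0 for leaf growth and 1 for abscisic acid. With a minimum of 5 TPM, RAV relatives had 1 call, since RAV1 was then not tested, and without a variance trend leaf growth had 0. Leaving out 1 library gave 0 to 2 calls for RAV relatives, 0 to 1 for style factors, 0 to 1 for auxin transport, 0 to 2 for auxin response, 0 to 0 for leaf growth and 0 to 2 for abscisic acid. In these fits the lone library of a genotype is assumed to vary like the other genotype. Same-numbered libraries share only a number: their deviations from the group means correlated at 0.078 over 15143 genes. With the replicate block, which leaves 1 residual degree of freedom, 2844 genes were called, leaf growth had 2 calls, and TEM2 was called. That fit took each gene's variance from the trend across genes alone. Its p-values are therefore too small, and nothing is read from its calls. In this balanced layout the block cannot move the NGATHA differences. Of 22 genes followed by name, the 12 called ones did not change sign, and without a minimum 8 of them lost the call. Among the rest, VAL1 turned to 0.13, TCP4 to 0.02 and NCED3 to 0.07 with ribosomal RNA and organelle genes removed. With 1 library left out, VAL1 ranged from -0.33 to 0.20, TCP4 from -0.29 to 0.02 and NCED3 from -0.38 to 0.18. The cause of these changes was not tested.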
